A study of Mus musculus with 10 samples.

Results

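The genes described here are 8 type II keratin genes of the mouse epidermis and its appendages, Krt5, Krt6a, Krt6b, Krt75, Krt1, Krt2, Krt77 and Krt79, which stand in 1 cluster on chromosome 15. A p63 peak was taken as theirs when it lay inside or within 50 kb of one of them, measured from the edge of the peak to the annotated extent of the gene, and each peak was assigned to the nearest of the 8. This gave 9 peaks of the 8451 in the list. The data are a ChIP-seq (chromatin immunoprecipitation and sequencing) experiment in 2 mouse keratinocyte lines, MK1 and MK2, which the labels call similar. The p63 antibody was 4A4, and the peak list combines the p63 library of MK1 with that of MK2 by IDR (irreproducible discovery rate, a filter for peaks that rank alike in replicates). The labels give no genotype, strain, age or treatment for either line, so the lines are described here only as keratinocytes. Histone and input libraries were also made and are not analysed here.

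The list gives 3 columns, chromosome, start and end. It carries no peak height, read count or score, which leaves the read depth unknown and the spread between the lines unmeasured. A list of positions also cannot check the cell type on expression of Krt5, Krt14 or Trp63. All values below are positions, distances, widths and counts, with no replicate error. Positions are 1-based on mm10 (GRCm38).

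Keratins are the intermediate filament proteins of epithelial cells. A type II keratin pairs with a type I keratin to build a filament, and the pair a cell makes changes as it moves from the basal layer of the epidermis to its surface. Krt5 pairs with Krt14 in basal cells, Krt1 pairs with Krt10 in the suprabasal layers, and Krt6a and Krt6b pair with Krt16 and Krt17 in wounded or proliferating epidermis and in the hair follicle. p63, a relative of p53 encoded by Trp63, is the transcription factor that marks basal cells of stratified epithelia, and it binds DNA through a p53-type element made of paired 10-base half-sites with a central C, A or T, A or T, G core.

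The 8 genes spanned 377.0 kb, from 101563343 to 101940324 on chromosome 15. In order of position they were Krt75, Krt6b, Krt6a, Krt5, Krt2, Krt1, Krt77 and Krt79. Krt6b, Krt6a and Krt5 lay close together, with 9.634 kb between the first 2 and 12.763 kb between Krt6a and Krt5. Krt75 stood 102.1 kb below Krt6b, and Krt2 stood 97.8 kb above Krt5. A strand was given for 16 keratin genes of the cluster, and 14 of them, among them Krt75, Krt5, Krt2, Krt77 and Krt79, were on the minus strand. The exceptions were Krt7 and Krt18. A minus strand gene starts at or near the upper end of its extent, and positions above the start are upstream. For Krt2 the start given in the promoter table, 101818169, lies below the upper end of the extent, 101818956.

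Of the 9 peaks, 4 lay in the block of Krt6b, Krt6a and Krt5, 2 lay below Krt75, 2 lay below Krt2 and 1 lay above Krt79. No peak lay inside any of the 8 genes. Of the 9 peaks, 2 lay inside the annotated extent of another protein-coding gene, Krt82 or Krt78. Among all peaks in the list, 54.3% overlapped a protein-coding gene. Krt1 and Krt77 had no peak within 50 kb. Of the 8 genes, 6 had a peak within 50 kb, beside 40.8% of all 21779 protein-coding genes. The 6 are not independent, since Krt5, Krt6a and Krt6b were counted on the same 4 peaks. Within 25 kb 4 of the 8 had a peak, beside 29.8% of protein-coding genes. Within 10 kb 2 of the 8 had one, Krt5 and Krt6a, close to the general share of 21.4%. Within 1 kb it was the same 2, beside 14.8%. Within 100 kb all 8 had one, beside 55.3%.

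**Figure D1:**
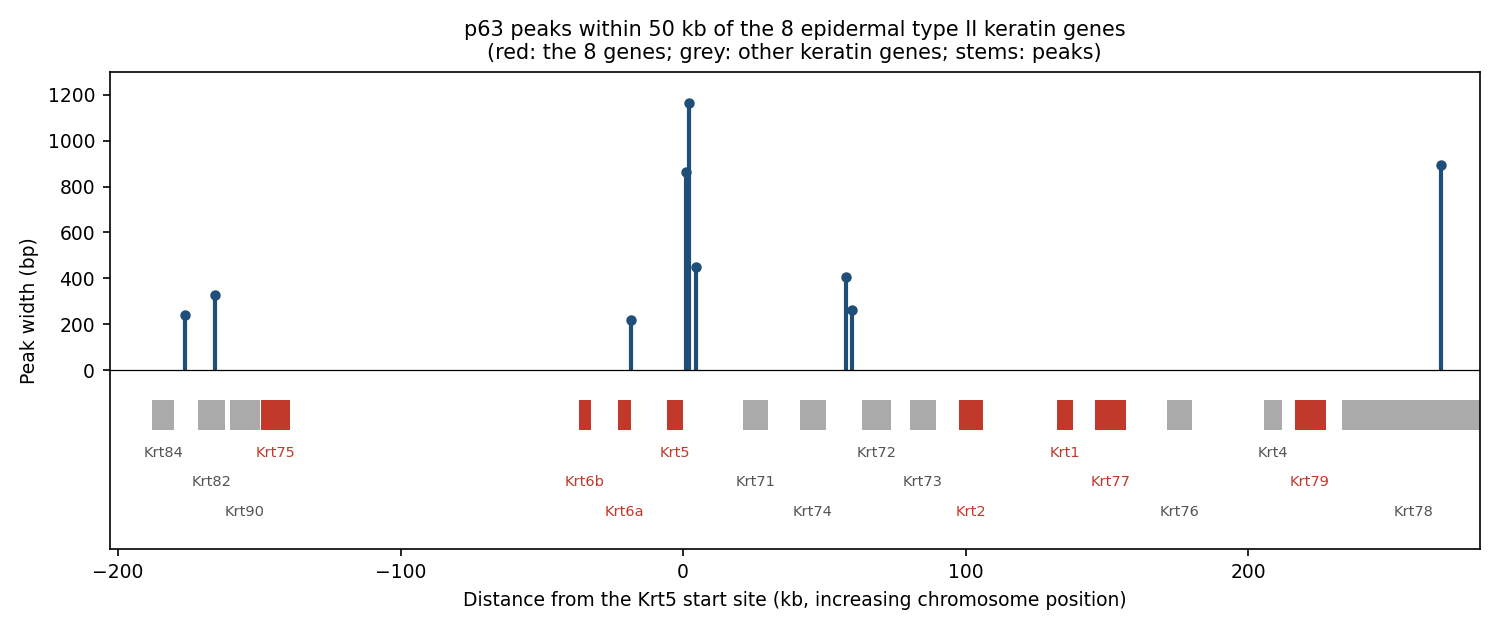
Map of the type II keratin cluster with distance from the Krt5 start site in kb on the horizontal axis and peak width in bp on the vertical axis. Red boxes are the 8 genes, grey boxes are other keratin genes (Krt78 runs past the right edge) and each stem is 1 of the 9 p63 peaks. The tallest stem, 1166 bp, stands just above Krt5, and no stem falls between 60.005 and 267.684 kb, where Krt2, Krt1, Krt77 and Krt79 lie.

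Krt5, the basal layer gene, was the nearest gene of 3 peaks, more than any other of the 8. All 3 lay upstream of its start. The first spanned 101713473 to 101714335 (863 bp), with its near edge 568 bp above the start site at 101712905. The second spanned 101714459 to 101715624 (1166 bp), with its near edge at 1.554 kb. The third spanned 101717242 to 101717692 (451 bp), at 4.337 kb. The first and second were separated by 123 bp, so that called p63 regions covered all but those 123 bp of the stretch from 568 to 2719 bp upstream. Of 8430 gaps between neighbouring peaks on the same chromosome, 40 were as short as this or shorter (0.474%). The third peak followed after 1.617 kb, a gap matched or undercut by 4.93% of gaps. Together the 3 peaks held 2480 bp in a stretch of 4220 bp.

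The pair of peaks at Krt5 was among the widest of the list. The 1166 bp peak ranked 10 and the 863 bp peak 55 of 8451 by width, so that 0.118% and 0.651% of peaks were as wide or wider. The third Krt5 peak, at 451 bp, was matched or exceeded by 15.6% of peaks. Width here is the extent of the called region, and the list does not say how many p63 sites it holds.

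**Figure D2:**
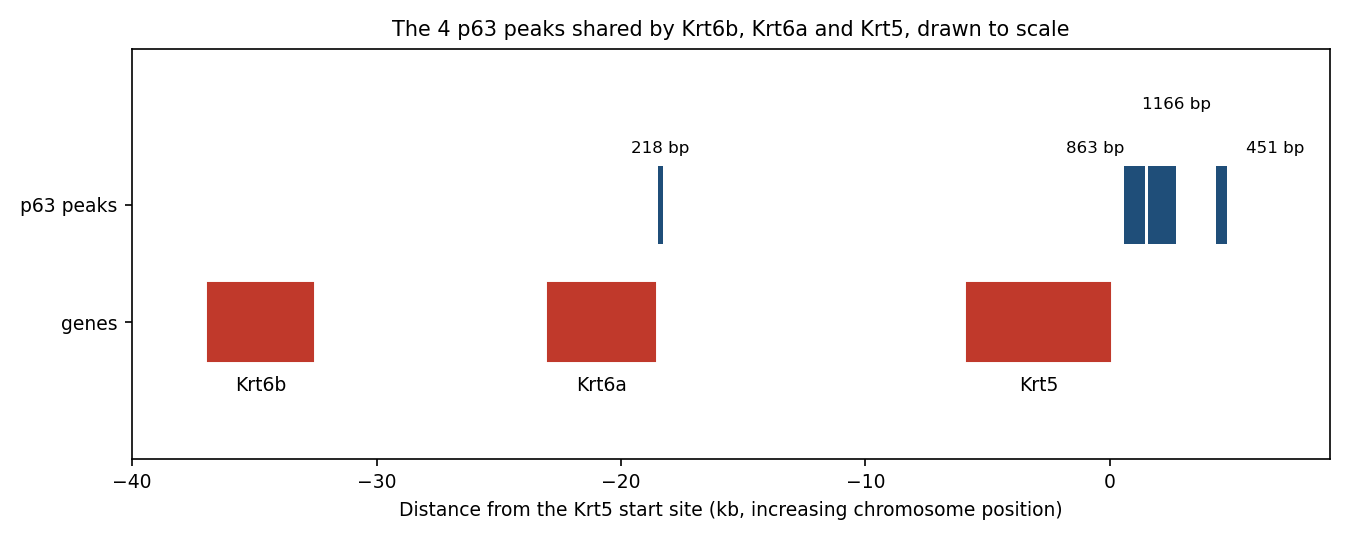
The block of Krt6b, Krt6a and Krt5, with distance from the Krt5 start site in kb on the horizontal axis. Red boxes are genes and blue boxes are the 4 p63 peaks, all drawn to scale with their widths in bp. The peaks of 863 and 1166 bp stand side by side above Krt5, and the 218 bp peak begins 94 bp above Krt6a.

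The DNA next to the Krt5 start was read from a RefSeq table of GRCm38.p6 promoters, which matched 5 of the 8 genes (Krt75, Krt5, Krt2, Krt77 and Krt79). The 250 bases upstream of the start hold no peak at Krt5 and end 318 bp short of its first peak. They are shown for Krt5, the gene with the nearest wide peaks, and for Krt77, a gene with no peak within 50 kb. The Krt5 sequence is chr15:101712906-101713155 and the Krt77 sequence is chr15:101869706-101869955. Both are on the minus strand and read 5′ to 3′ toward the start. Capitals mark the whole half-site in Krt5 and the 4-base cores in Krt77.
Krt5: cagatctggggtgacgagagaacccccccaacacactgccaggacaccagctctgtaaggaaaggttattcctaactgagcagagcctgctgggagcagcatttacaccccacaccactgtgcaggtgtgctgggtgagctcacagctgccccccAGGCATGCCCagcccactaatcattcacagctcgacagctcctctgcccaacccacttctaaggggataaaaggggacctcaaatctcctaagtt
Krt77: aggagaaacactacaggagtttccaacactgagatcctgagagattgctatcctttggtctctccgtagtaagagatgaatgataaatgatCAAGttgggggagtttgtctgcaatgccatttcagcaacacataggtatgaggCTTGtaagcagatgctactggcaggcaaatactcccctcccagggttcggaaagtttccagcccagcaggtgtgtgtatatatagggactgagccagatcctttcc
Krt5 carried 1 whole p53-family half-site, AGGCATGCCC, from 95 to 86 bases upstream of its start, and Krt75, Krt2, Krt77 and Krt79 carried none. Of 21263 upstream windows of protein-coding genes of the same length, 6.31% held a whole half-site. The search for the whole half-site was added after the Krt5 sequence had been seen. The cores alone were common. They were CATG and CTAG, and CAAG, which reads as CTTG on the other strand. At least 1 was found in all 5 windows and in 96.0% of all windows, with 1 in Krt5, 4 in Krt75, 5 in Krt2 and 2 each in Krt77 and Krt79. The looser arrangement of paired CNNG letters 6 bases apart, which overlaps the cores, was found in Krt5 and Krt75 and in 68.5% of all windows. In Krt75 the paired letters were the cores CAAG and CTAG. In Krt5 both were CCAG, which is not a core, and CATG lay between them. Each motif was searched on both strands. A match is a run of letters and does not show that p63 binds there, and the DNA under the peaks themselves was not read here.

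Krt6a, which encodes a keratin of wounded and proliferating epidermis and of the hair follicle, had a single peak assigned to it. It spanned 101694399 to 101694616 and began 94 bp above the upper end of the gene at 101694305. This was the smallest distance among the 8 genes, and 14.0% of protein-coding genes had a peak as near or nearer. The peak was also the narrowest of the 9, at 218 bp, and 85.7% of all peaks were as wide or wider. The nearest peak to Krt6a was thus closer but far narrower than the nearest peak to Krt5. If the upper end of Krt6a is taken as its start, which its table entry does not state, this was also the only peak of the 9 that overlapped the window from 250 bases before to 50 bases after a start.

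Krt6b, the close relative of Krt6a on its lower side, was the nearest gene of no peak. Its nearest was the Krt6a peak, 14.106 kb above its upper end, with Krt6a between them. No peak lay between Krt6b and Krt6a. How reads that match both genes were handled is not stated, so a lack of p63 at Krt6b cannot be read from this. Below Krt6b the next peak was beyond Krt75, at the end of a stretch of 147.2 kb without any peak. That stretch also held 4 pseudogenes and the protein-coding gene Gm5414, which lie between Krt75 and Krt6b. A gap of that length or longer was seen for 35.2% of neighbouring peaks, whose median gap was 75.1 kb.

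Within the 50 kb window, peaks were shared in this block and at no other of the 8 genes. All 4 of its peaks lay within 50 kb of Krt5, Krt6a and Krt6b alike, and the other 5 peaks lay within 50 kb of 1 of the 8 genes each. The 3 genes of the block therefore had equal counts of 4 peaks and equal summed peak widths of 2698 bp, which was 55.9% of the 4826 bp in all 9 peaks. At least 4 peaks within 50 kb were found at 4.78% of protein-coding genes. Other keratin genes reached this count too, some of them on shared peaks. Krt84, Krt82 and Krt90 had 4, Krt74 and the type I gene Krt42 had 5, and Krt71 and the type I genes Krt16 and Krt17 had 6. The counts of the 3 genes of the block parted with distance: within 10 kb Krt5 had 3 peaks, Krt6a 1 and Krt6b 0.

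Krt75, which encodes a keratin of the companion layer of the hair follicle, had 2 peaks, both below its lower end and thus beyond its 3′ side. One spanned 101546908 to 101547233 (326 bp) at 16.1 kb, inside Krt82. The other spanned 101536568 to 101536808 (241 bp) at 26.5 kb, between Krt84 and Krt82. They lay 10.099 kb apart. For neither was Krt75 the nearest protein-coding gene: this was Krt82 for the first and Krt84, at 3.748 kb, for the second. Krt82 and Krt84 encode hair-type keratins. Upstream of Krt75 the next peak was 120.5 kb away, at Krt6a.

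No peak lay close to Krt1 or Krt77. Krt1, the main type II keratin of the spinous and granular layers, had its nearest peak at 72.5 kb. Krt77, which encodes a keratin related to that of Krt1, had its nearest peak at 85.8 kb. For both genes it was the same 261 bp peak, at 101772650 to 101772910, with Krt72, Krt73 and Krt2 in between. These distances were near the middle of all protein-coding genes, since 48.2% had a peak as near as Krt1 or nearer and 51.7% as near as Krt77. Because the depth is unknown, a gene with no peak nearby may still bind p63 below what the libraries could show.

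Krt2, which encodes a keratin of the upper suprabasal layers, had 2 peaks below its lower end. The nearer was the same 261 bp peak, at 37.8 kb. The farther spanned 101770237 to 101770643 (407 bp) at 40.0 kb, and 2.006 kb separated them. Both lay between Krt74 and Krt72, and the nearest protein-coding gene of both was Krt72, at 3.262 and 5.529 kb. Krt71 to Krt74 are the keratin genes of the inner root sheath of the hair follicle, and Krt74 is annotated as a transcribed pseudogene in the mouse.

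Krt79, which encodes a keratin of the upper hair follicle and sebaceous duct, had 1 peak, at 101980589 to 101981481. It lay 40.3 kb above the upper end of the gene, inside the annotated extent of Krt78. That extent was 50.6 kb, the longest of the keratin genes looked up, with Krt80 next at 21.8 kb. The placement of the peak inside Krt78 rests on this long extent. At 893 bp the peak ranked 48 by width, and 0.580% of peaks were as wide or wider. Between the peaks at 101772910 and 101980589, 207.7 kb held no peak. Krt72, Krt73, Krt2, Krt1, Krt77, Krt76, Krt4 and Krt79 lay wholly within it, so that 4 of the 8 genes fell in 1 empty stretch. A gap of this length or longer was seen for 28.5% of neighbouring peaks.

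**Figure D3:**
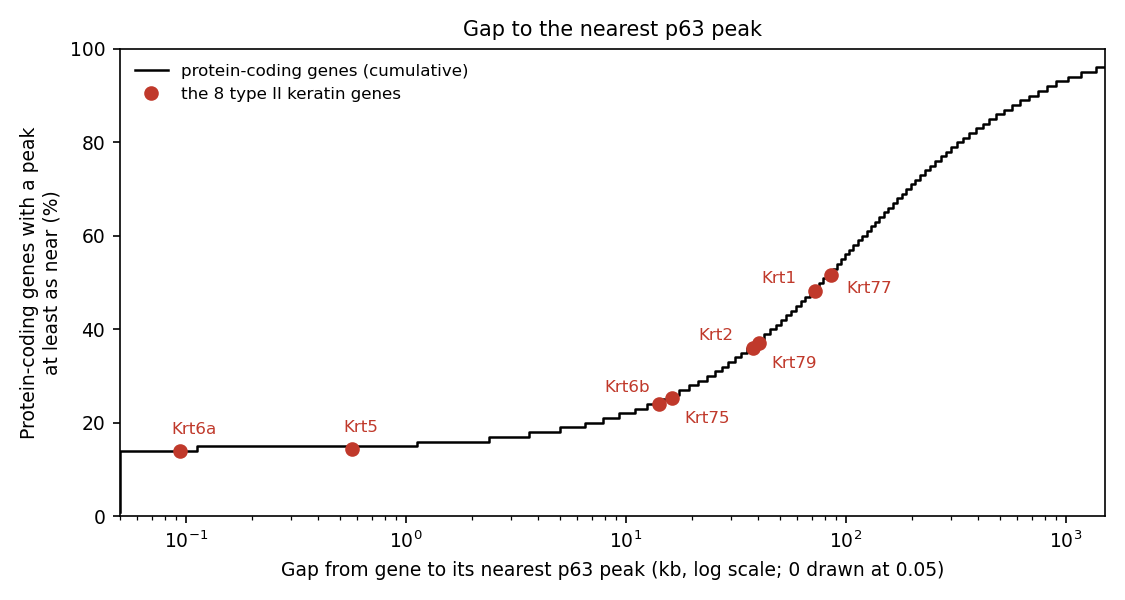
Gap from each gene to its nearest p63 peak in kb (horizontal, log scale) against the percentage of protein-coding genes with a peak at least as near (vertical). The black line is all 21779 protein-coding genes and the red points are the 8 type II keratin genes. Krt6a and Krt5 sit below 1 kb, Krt6b and Krt75 at 14.1 and 16.1 kb, and Krt2, Krt79, Krt1 and Krt77 at 37.8 to 85.8 kb.

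The order of the 8 genes by distance to the nearest peak was Krt6a, Krt5, Krt6b, Krt75, Krt2, Krt79, Krt1 and Krt77. The median was 26.9 kb, beside 78.8 kb for all protein-coding genes. The 8 distances are not independent, since Krt6a and Krt6b had the same nearest peak, as did Krt2, Krt1 and Krt77. With 1 list and no replicate error, neighbours in this order such as Krt2 and Krt79 (37.8 and 40.3 kb) cannot be ranked apart by a test. The peaks nearest to the window limit were the Krt79 peak and the farther Krt2 peak, at 40.3 and 40.0 kb. Just outside it were peaks at 54.5 and 60.5 kb below Krt75 and at 65.1 kb above Krt79.

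Across the 9 peaks, widths ran from 218 to 1166 bp with a median of 407 bp, beside 305 bp for the whole list. Of the 9, 3 reached the 95th percentile of width, 592.5 bp, namely the pair at Krt5 and the peak inside the Krt78 extent. The peaks of the pair lay 123 bp apart, so the 3 are not all separate sites. In the whole list 5.01% of peaks reached that width. Near the 18 other type II keratin genes of the cluster it was 4 of 16 peaks, which include the same 3, and the fourth, 1173 bp wide and near Krt80, was wider than any of the 9. Near 8 type I keratin genes it was 2 of 12. The other 6 ran from 218 to 451 bp. Joining peaks that lay within 10 kb of each other left 6 separate sites, of which the Krt5 site held 3 peaks and the Krt2 site 2.

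**Figure D4:**
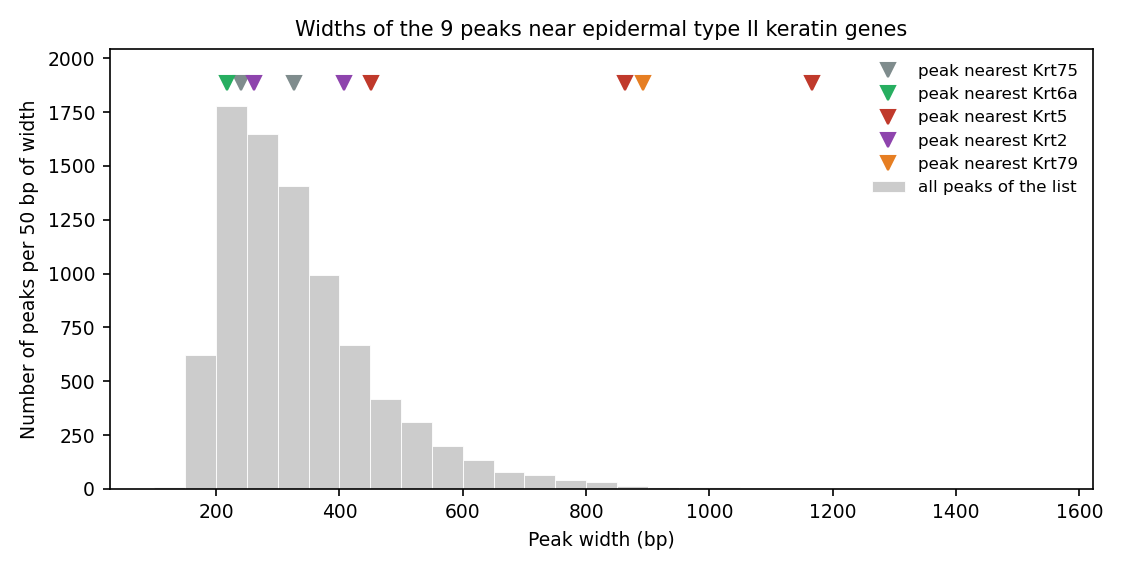
Widths of all 8451 p63 peaks in bins of 50 bp (grey bars, number of peaks) and of the 9 peaks near the type II keratin genes (triangles, coloured by nearest of the 8 genes). The triangles at 863, 893 and 1166 bp lie in the far right tail, and the other 6 lie between 218 and 451 bp, within the bulk of the list.

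The assignment to the 8 genes left other keratins out of account. When all protein-coding genes competed for a peak, 4 of the 9 kept their gene, the 3 at Krt5 and the 1 at Krt6a. The other 5 went to Krt84, Krt82, Krt72 (2 peaks) and Krt78. Among the 18 other type II keratin genes of the cluster, 14 had a peak within 50 kb and 8 within 10 kb. The shares over all protein-coding genes were 40.8% and 21.4%. The 14 are not independent, since neighbours can count the same peaks. Krt84, Krt82 and Krt90, for example, each had 4 peaks with the same summed width, 1157 bp. The median distance of the 18 genes to the nearest peak was 13.7 kb. The 18 genes had 16 peaks within 50 kb in all, and these included all 9 described above, so the sets are not separate. Krt71, next above Krt5, had 6 peaks within 50 kb and the nearest at 16.3 kb, the third Krt5 peak. Krt8, a keratin of simple epithelia at the far end of the cluster, had a peak 1.122 kb away.

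The type I partners, on chromosome 11, gave other values for the same measures. Krt14, the partner of Krt5, had its nearest peak at 1.066 kb (387 bp wide) and 2 peaks within 50 kb, where Krt5 had 4. Krt10, the partner of Krt1, had a 171 bp peak inside its annotated extent at 99391008 to 99391178, where Krt1 had none within 50 kb. The Krt10 extent was 12.2 kb, the longest of the 8 type I genes examined, with Krt42 next at 7.07 kb. The placement of the peak inside Krt10 rests on this long extent. The narrowest peak of the list was 138 bp, and 13.8% of protein-coding genes were overlapped by a peak. Krt16 and Krt17, partners of Krt6a and Krt6b, had 6 peaks each within 50 kb. These counts are not independent, since both genes had the same nearest peak and the same summed peak width, 2592 bp. The nearest peak was 35.1 kb from Krt16 and 23.0 kb from Krt17, where those of Krt6a and Krt6b were 0.094 and 14.106 kb away. All 8 type I genes examined (Krt14, Krt15, Krt16, Krt17, Krt10, Krt9, Krt13 and Krt42) had a peak within 50 kb. The share over all protein-coding genes was 40.8%. Their median distance to the nearest peak was 11.9 kb. The 8 are not independent, since Krt15 and Krt13 had the same nearest peak, as did Krt16, Krt17 and Krt42. The widest of the 12 peaks near these type I genes was 669 bp, below both members of the pair at Krt5. These differences between families were not tested.

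Krt6a and Krt6b share all 4 of their peaks with Krt5 and so have the same summed peak width. With the 8 genes left out, the genes most like Krt5 were sought among the 570 other protein-coding genes with exactly 4 peaks within 50 kb, by the difference in summed peak width. Cyrib on chromosome 15 came nearest, 316 bp under the 2698 bp of Krt5, with 2382 bp in peaks of 1023, 506, 649 and 204 bp, 2 of them inside the gene. Eif3k and Map4k1, neighbours on chromosome 7, followed with the same 4 peaks and 2348 bp. Of these 4, 2 lay inside Eif3k, and the nearest to Map4k1 was 7.113 kb away, whereas no Krt5 peak lay inside Krt5 and the nearest was 0.568 kb away.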

How the data were processed

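Chromatin of MK1 and MK2 was precipitated with antibodies to p63 or histone marks, and single-end reads of 50 bp were taken, per the labels' protocols. Bowtie 1.1.1, SAMtools 1.1 and mm10 are named in the submitters' processing notes. The deposited list of p63 peaks was made by the authors with IDR on the 2 p63 libraries, per the labels. The peak caller, its thresholds and the handling of reads that match near-identical copies such as Krt6a and Krt6b are not stated in the sources used here. Values in the deposited list are base positions, with no score.

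Starts were converted to 1-based positions. Gene extents came from a RefSeq table of GRCm38.p6, whose chromosome coordinates are those of mm10. On chromosomes except Y, 340 rows with an end under 3 Mb were dropped as scaffold positions, which left 49603 genes, 21779 of them protein-coding. All 35 keratin genes looked up were matched. The table gives no exons. Distances run from peak edge to gene extent. Peak distances and counts per gene were computed in Python 3.11.15 with pandas 2.3.3 and checked on simulated positions. Promoter windows are the 250 upstream bases of a RefSeq promoter table.

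No statistical test was run. The genes named besides the 8 were other keratins on a list, the nearest protein-coding genes of the 9 peaks, and the 3 most like Krt5. The 8 genes, the lists and the rules were chosen with earlier results of these data known. Other windows, joining gaps, width limits and distance rules were tried.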

Additional observations from a re-analysis of the deposited data

How the results depend on the processing

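With 25 kb in place of 50 kb the peaks near the 8 genes fell from 9 to 5, and with 10 kb the genes with a peak fell from 6 to 2, Krt5 and Krt6a. The other type II keratins with a peak fell from 14 to 8 within 10 kb. When all protein-coding genes competed, 4 of the 9 peaks kept their gene. Distances from peak midpoints changed no assignment. Nor did distances to start sites, which were given for only 5 of the genes. For Krt6a, Krt6b and Krt1 the nearer gene end was used instead. The whole half-site, a search added after the sequence was seen, was found in 1 of 5 promoter windows, where a core was found in 5. The 3 wide peaks were wide at the 90th and 99th percentiles too. The general share within 50 kb was 33.3% over all annotated genes. Leaving out MK1 or MK2, or a stricter threshold on score, could not be run on a list of positions made from both lines.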
